A study of Homo sapiens with 4 samples.

Results

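ACSL5, CPT1A, PPARG and CD36 are genes of fatty acid uptake and oxidation. Each was taken through every region that the authors list it as closest to in all 3 deposited tables, joined by position, which gave 5 regions of 5326 in all: 1 each for ACSL5, CPT1A and CD36, and 2 for PPARG. The genes were chosen with their reads and ratios in these libraries known, so the values below are descriptions and carry no test. The libraries were HNF4A in high glucose, IgG in high glucose, HNF4A in low glucose and IgG in low glucose, 1 library each, from HCCLM3, an established human hepatocellular carcinoma line. Chromatin immunoprecipitation with sequencing (ChIP-seq) counts the DNA fragments that an antibody brings down, and IgG, an antibody with no chosen target, measures the background. Per the labels' protocols, all libraries share 1 growth medium named as high glucose DMEM, and stable lines were made with a lentiviral CMV vector. The cDNA carried by that vector and the glucose concentration of the low level are not named in the labels. Binding data hold no expression values, so the cell type was not checked against marker genes.

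CD36 is a membrane protein that takes up long-chain fatty acids. ACSL5 joins them to coenzyme A, which activates them. CPT1A, the liver form of carnitine palmitoyltransferase on the outer mitochondrial membrane, commits the activated fatty acid to oxidation and is inhibited by malonyl-CoA. AMPK, the kinase that senses low energy, lowers malonyl-CoA by phosphorylating acetyl-CoA carboxylase. PPARG is a nuclear receptor activated by fatty acids that pairs with RXR and is best known from adipocytes. HNF4A is a nuclear receptor of hepatocytes that binds DNA as a homodimer, at 2 copies in a row of letters related to AGGTCA.

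The upstream promoter sequences below are marked for AGGTCA, a single copy and not the 2 copies in a row described above. They are the 250 bases before a RefSeq transcript start (GRCh38.p14), given 5′ to 3′ on the gene's strand, in lower case with each AGGTCA match in capitals. The regions of the tables are in hg19 and were not placed relative to these promoters, and their own sequence was not analysed here. For ACSL5 the first of 2 promoters is shown (chr10:112375018-112375267, plus strand), for CPT1A its only listed promoter (chr11:68844278-68844527, minus strand), and for PPARG the first 2 of 6 (chr3:12287118-12287367 and chr3:12288810-12289059, plus strand).
ACSL5 promoter 1: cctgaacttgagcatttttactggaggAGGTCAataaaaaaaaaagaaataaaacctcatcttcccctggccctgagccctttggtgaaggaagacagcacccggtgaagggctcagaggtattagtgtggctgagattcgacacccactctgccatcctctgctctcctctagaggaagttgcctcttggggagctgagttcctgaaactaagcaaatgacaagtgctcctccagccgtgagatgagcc
CPT1A promoter 1: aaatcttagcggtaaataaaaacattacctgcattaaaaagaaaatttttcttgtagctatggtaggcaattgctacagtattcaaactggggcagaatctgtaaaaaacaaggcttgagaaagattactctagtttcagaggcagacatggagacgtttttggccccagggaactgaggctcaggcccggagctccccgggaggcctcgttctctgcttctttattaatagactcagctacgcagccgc
PPARG promoter 1: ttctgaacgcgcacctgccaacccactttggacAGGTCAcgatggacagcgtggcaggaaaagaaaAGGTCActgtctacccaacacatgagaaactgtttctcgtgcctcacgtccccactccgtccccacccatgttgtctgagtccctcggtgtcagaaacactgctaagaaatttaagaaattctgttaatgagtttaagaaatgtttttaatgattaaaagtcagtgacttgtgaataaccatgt
PPARG promoter 2: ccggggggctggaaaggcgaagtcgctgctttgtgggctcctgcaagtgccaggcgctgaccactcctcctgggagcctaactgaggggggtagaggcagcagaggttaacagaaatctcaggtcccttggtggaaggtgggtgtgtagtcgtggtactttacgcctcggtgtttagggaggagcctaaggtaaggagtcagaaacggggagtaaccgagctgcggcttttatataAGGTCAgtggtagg

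AGGTCA, searched on both strands, lay in 1 of 2 ACSL5 promoters, 3 of 6 PPARG promoters, 0 of 1 CPT1A promoter and 0 of 6 CD36 promoters, where 12.1% of all 35116 promoters hold it. In PPARG promoter 1 there were 2 matches, beginning 217 and 184 bases before the start. PPARG promoter 2 held 1 match beginning 14 bases before its start, and the third PPARG promoter overlaps it and holds the same match. The longer forms CAAAGTCCA and CAAAGGTCA, the second of which ends in AGGTCA, were in none of the 15 promoters of the 4 genes. Of all promoters, 0.325% and 0.339% hold them. These matches are letters in a window and were not related to the reads.

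The 5 regions are short stretches of hg19. The ACSL5 region spans chr10:114139223-114140408 (1186 bp) and the CPT1A region chr11:68624484-68625523 (1040 bp). PPARG region 1 spans chr3:12266023-12266903 (881 bp) and PPARG region 2 chr3:12446809-12447811 (1003 bp), with 179905 bp between them. The CD36 region spans chr7:80351052-80352623 (1572 bp). The median of all regions was 1030 bp. Closeness to a gene is the authors' assignment, and no exon, intron or start site of hg19 was assigned here.

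Over the 5326 regions, HNF4A had 402237 reads in high and 295460 in low glucose, and IgG 249744 and 198683. Relative library sizes, from the deposited levels, ran from 0.982 to 1.10. Reads divided by these sizes are called scaled reads, and ranges in parentheses are exact 95% counting intervals. With 1 library per group there is no replicate error for any value below.

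HNF4A reads stood over IgG in all 5 regions at both glucose levels, where 84.2% of all regions did so in high glucose and 91.5% in low glucose. In ACSL5 and CPT1A the ratio over IgG was larger in low than in high glucose, and IgG was down to 3 and 2 reads there. In both PPARG regions the ratio was also larger in low glucose, by less. The log2 difference, high minus low, was -0.42 (-1.83 to 0.97) in region 1 and -0.32 (-1.78 to 1.10) in region 2. Each of the 5 intervals of this difference included 0. CD36 was the only one of the 5 with the larger ratio in high glucose, beside more HNF4A reads in high glucose.

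CD36, the uptake gene, had 88 HNF4A and 18 IgG reads in high glucose, and 42 HNF4A and 15 IgG reads in low glucose. The log2 ratio of HNF4A over IgG was 2.14 (1.40 to 2.96) in high glucose and 1.46 (0.58 to 2.42) in low glucose. The HNF4A reads differed more between the glucose levels than the IgG reads did. HNF4A for high over low glucose was 0.93 (0.39 to 1.50), a 1.91-fold ratio, and IgG for high over low glucose was 0.25 (-0.82 to 1.34). The difference between the 2 ratios over IgG, high minus low, was 0.68 (-0.56 to 1.90), an interval that includes 0.

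ACSL5, the activating enzyme, had 89 HNF4A and 15 IgG reads in high glucose, and 57 HNF4A and 3 IgG reads in low glucose. The log2 ratio over IgG was 2.42 (1.62 to 3.32) in high glucose and 4.22 (2.60 to 6.54) in low glucose. The larger ratio in low glucose went with fewer IgG reads and not with more HNF4A reads. HNF4A for high over low glucose was 0.51 (0.01 to 1.01), and IgG was 2.31 (0.48 to 4.74). Of all regions, 98.8% had an IgG ratio of high over low glucose at or below that of ACSL5. With the mean of both IgG libraries as background, ACSL5 stood at 3.16 in high and 2.65 in low glucose, the other order. With a shared background the order follows from the HNF4A reads alone, so it is not a separate result. The difference with matched IgG was -1.80 (-4.28 to 0.12).

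CPT1A, the carnitine shuttle enzyme, had 44 HNF4A and 9 IgG reads in high glucose, and 31 HNF4A and 2 IgG reads in low glucose. The log2 ratio over IgG was 2.14 (1.09 to 3.36) in high and 3.93 (1.95 to 7.04) in low glucose, and the wide interval in low glucose rests on the 2 IgG reads. As in ACSL5, both antibodies had fewer reads in low glucose. HNF4A for high over low glucose was 0.37 (-0.33 to 1.08), which came to 0.01 after centring on the all-region median, and IgG was 2.15 (-0.12 to 5.40). With the mean of both IgG libraries as background, CPT1A stood at 2.85 in high and 2.48 in low glucose. This is again the other order, and again it follows from the HNF4A reads alone. The difference with matched IgG was -1.78 (-5.11 to 0.64).

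PPARG, the nuclear receptor gene, had 61 HNF4A and 14 IgG reads in high glucose and 50 HNF4A and 10 IgG reads in low glucose in region 2. In region 1 it had 39 HNF4A and 16 IgG reads in high glucose and 36 HNF4A and 12 IgG reads in low glucose. Region 2 thus held more HNF4A reads and fewer IgG reads than region 1 at each glucose level. Region 2 stood at a log2 ratio over IgG of 1.98 (1.12 to 2.93) in high and 2.30 (1.30 to 3.44) in low glucose. Region 1 stood at 1.14 (0.27 to 2.08) in high and 1.56 (0.58 to 2.64) in low glucose. The intervals of the 2 regions overlap at each glucose level. No interval was computed for the difference between the 2 regions, so their order was not tested.
HNF4A for high over low glucose was 0.15 (-0.41 to 0.72) in region 2, which turns to -0.20 after centring on all regions, and -0.02 (-0.71 to 0.67) in region 1. IgG was 0.47 (-0.81 to 1.80) in region 2 and 0.40 (-0.77 to 1.61) in region 1. Both PPARG regions are listed for 1 gene and are not independent of each other.

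**Figure D1:**
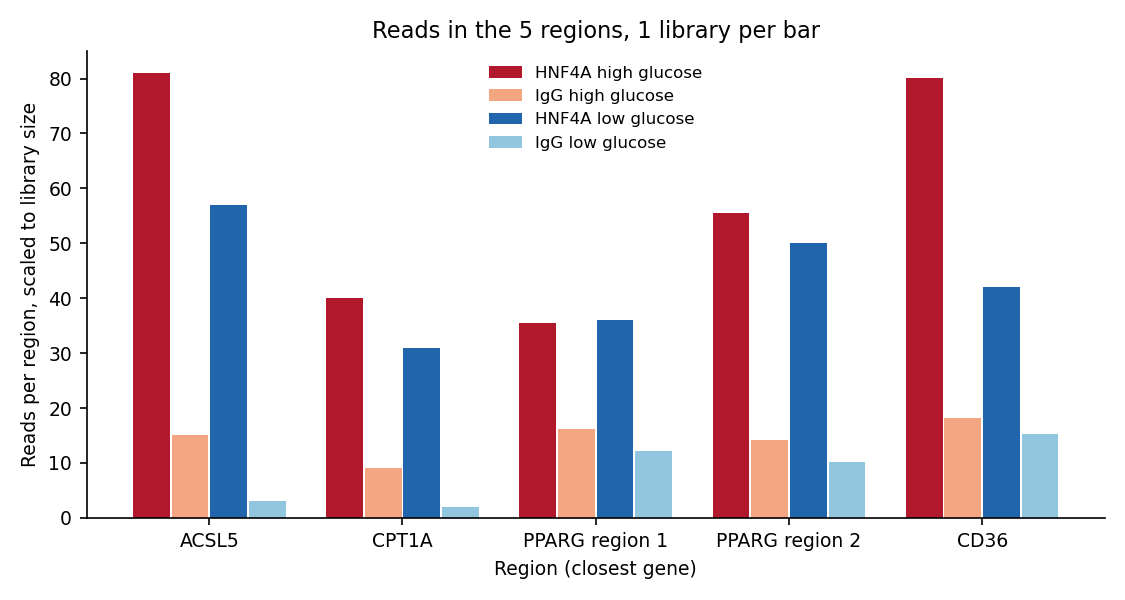
Reads per region divided by relative library size (y axis) in the 5 regions (x axis), with 1 bar per library: HNF4A in high glucose, IgG in high glucose, HNF4A in low glucose and IgG in low glucose. HNF4A bars stand above IgG bars of the same glucose level in all 5 regions, and IgG in low glucose is lowest for ACSL5 (3 reads) and CPT1A (2 reads).

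**Figure D2:**
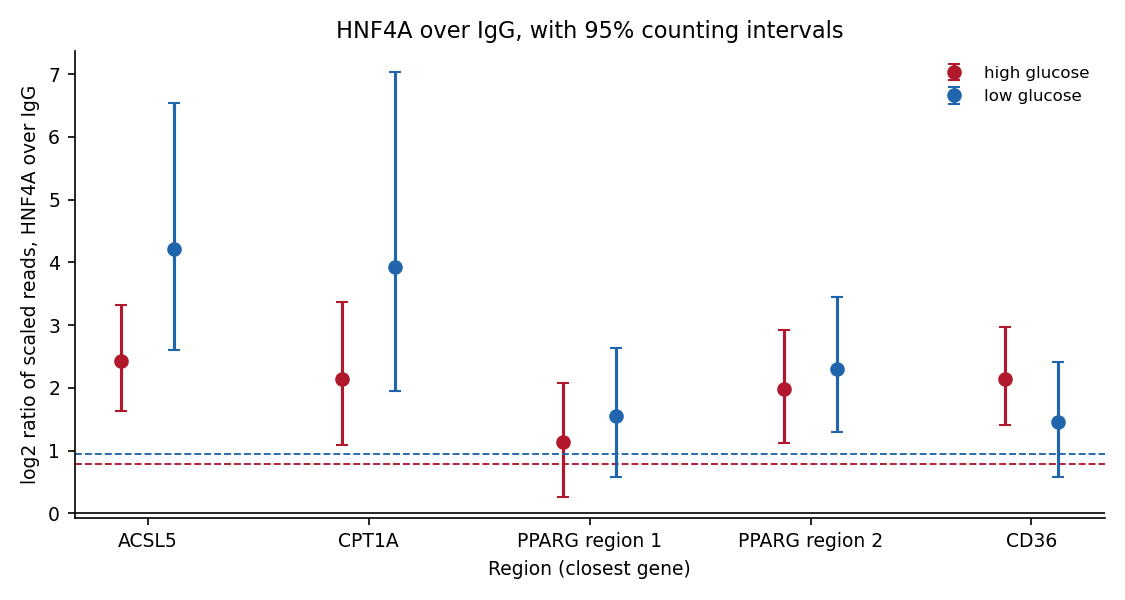
The log2 ratio of scaled HNF4A over IgG reads (y axis) for each region (x axis) in high and low glucose. Points are single ratios, bars are exact 95% counting intervals, and dashed lines are the medians of all 5326 regions, 0.79 in high and 0.94 in low glucose.

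Against the whole table, all 5 regions were at least 2-fold over IgG in high glucose, where 41.6% of the 5326 regions were, and all 5 in low glucose, where 46.8% were. The ratios were known when the genes were chosen, so nothing is read from those counts. The median log2 ratio of the 5 was 2.14 in high glucose, beside 0.79 over all regions, and 2.30 in low glucose, beside 0.94. On chromosome 10 ACSL5 tied with the region of GPAM, which has 1 listed IgG read, for the highest ratio of 139 regions in low glucose, and had rank 18 in high glucose. CPT1A had the highest of 299 regions on chromosome 11 in low glucose and rank 29 in high glucose. These top ranks in low glucose rest on 3 IgG reads in ACSL5 and 2 in CPT1A. CD36 ranked 32 of 498 on chromosome 7 in high glucose and 91 in low glucose. PPARG region 2 ranked 50 of 308 on chromosome 3 in high and 30 in low glucose, and PPARG region 1 ranked 124 and 82.

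The level per kilobase shows what the ratios over IgG are made of. HNF4A in high glucose ran from 38.5 scaled reads per kb in CPT1A to 68.3 in ACSL5, beside a median of 41.7 over all regions, with 2 of the 5 below that median. At low glucose it ran from 26.7 in CD36 to 49.9 in PPARG region 2, beside a median of 33.1, again with 2 of the 5 below. IgG lay below its all-region median in 5 of 5 at each level: 8.72 to 18.3 scaled reads per kb in high glucose beside 25.1, and 1.96 to 13.9 in low glucose beside 17.0. The 5 regions thus lay on both sides of the median in HNF4A level and below it in IgG, which is the lower term of the ratios known when the genes were chosen.

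Ordered by HNF4A level per kb in high glucose, ACSL5 at 68.3 (54.9 to 84.1) came before PPARG region 2 at 55.4 (42.3 to 71.1), CD36 at 51.0 (40.9 to 62.8), PPARG region 1 at 40.3 (28.7 to 55.1) and CPT1A at 38.5 (28.0 to 51.7). The interval of each overlaps that of its neighbour in that order, while those of ACSL5 and CPT1A do not overlap. At low glucose the order was PPARG region 2 at 49.9 (37.0 to 65.7), ACSL5 at 48.1 (36.4 to 62.3), PPARG region 1 at 40.9 (28.6 to 56.6), CPT1A at 29.8 (20.3 to 42.3) and CD36 at 26.7 (19.3 to 36.1). CD36 was in the third place in high glucose and in the last in low glucose, where its interval lies below those of PPARG region 2 and ACSL5.

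Between glucose levels, 0 of the 5 regions differed 2-fold in HNF4A, where 6.78% of all regions were at least 2-fold higher and 0.713% at least 2-fold lower in high glucose. The median of the 5 was 0.37, beside 0.36 over all regions. The intervals of CD36 and ACSL5 lay above 0, as did 25.8% of all intervals, and those of the other 3 included 0. After centring on the all-region median, CD36 stood at 0.58 and ACSL5 at 0.15. For IgG, 2 of the 5, ACSL5 and CPT1A, were at least 2-fold higher in high glucose, where 19.4% of all regions were. The IgG interval lay above 0 in ACSL5 alone among the 5, and in 26.2% of all regions. The median of the 5 was 0.47 for IgG, beside 0.51 over all regions. The ratio over IgG was lower in high than in low glucose in 4 of the 5, where 58.3% of all regions had it lower, and each of the 5 intervals of the difference included 0. With the mean of both IgG libraries as background, the difference equals the HNF4A ratio of high over low glucose, and it was lower in 1 of the 5, PPARG region 1. The median of the 5 was then 0.37, in place of -0.42 with matched IgG.

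**Figure D3:**
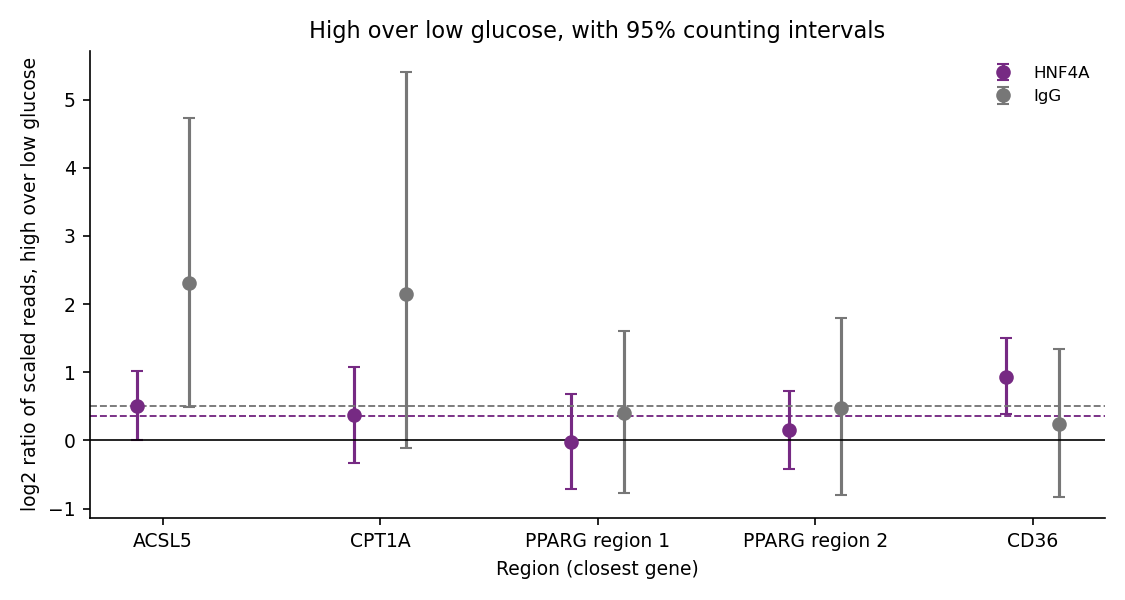
The log2 ratio of scaled reads for high over low glucose (y axis) for HNF4A and for IgG in each region (x axis), with exact 95% counting intervals. Dashed lines are the medians of all regions, 0.36 for HNF4A and 0.51 for IgG. ACSL5 and CPT1A differ more in IgG than in HNF4A, and CD36 more in HNF4A than in IgG.

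In the authors' deposited tables, 0 of the 5 regions passed an FDR of 0.05 in any of the 3 comparisons, as did 0% of all regions. The authors' deposited FDR for the 5 was 0.865 to 0.906 for HNF4A over IgG in high glucose, 0.820 for each in low glucose, and 0.914 to 0.993 for HNF4A for high over low glucose. The lowest unadjusted p of the 5 in the authors' deposited tables was 0.00161, for ACSL5 in low glucose. For HNF4A for high over low glucose, the lowest was 0.0879, for CD36.

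Regions listed for other genes lie within 500 kb of the 5, and the rule for the 4 genes did not use them. There were 10, of which 7 were at least 2-fold over IgG in high glucose and 8 in low glucose, with median log2 ratios of 1.63 and 1.79. Over all regions these were 41.6% and 46.8%, with medians of 0.79 and 0.94. Beside ACSL5, a region of TECTB 98.4 kb away had 33 HNF4A and 5 IgG reads in high glucose and 22 HNF4A and 4 IgG reads in low glucose. Its ratios over IgG were 2.58 (1.21 to 4.29) in high and 2.43 (0.88 to 4.43) in low glucose. A region of GPAM, which encodes the mitochondrial enzyme that starts glycerolipid synthesis, lay 330.4 kb from ACSL5 on the same side. It had 19 HNF4A and 6 IgG reads in high glucose, and 19 HNF4A reads and a listed 1 IgG read in low glucose, which may stand for 0. As at ACSL5, its larger ratio in low glucose, 4.22 (1.57 to 9.60) against 1.52 (0.14 to 3.13) in high glucose, went with low IgG.

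Beside CPT1A, a region of TPCN2 had 67 HNF4A and 15 IgG reads in high glucose and 26 HNF4A and 7 IgG reads in low glucose. HNF4A for high over low glucose was 1.23 there and IgG was 1.08, and the ratio over IgG was 2.01 in high and 1.87 in low glucose. A region of LRP5, a Wnt co-receptor, stood at 2.94 (1.72 to 4.45) over IgG in high and 1.97 (0.83 to 3.30) in low glucose. The region of MRGPRF-AS1 stood at 1.80 and 1.71, that of PPP6R3 at 1.10 and 0.39, and that of LOC338694 at 0.48 and 1.01. None of these 5 neighbours had IgG as low in low glucose as CPT1A, with 7 to 18 reads. Beside PPARG, a region of MKRN2 stood at -0.49 (-1.23 to 0.24) in high and 1.56 (0.72 to 2.47) in low glucose. GNAT3, listed for the only region near CD36, had 41 HNF4A and 11 IgG reads in high and 36 HNF4A and 9 IgG reads in low glucose. Its HNF4A for high over low glucose was 0.05 (-0.63 to 0.74), below that of CD36, and the 2 intervals overlap.

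By distance over the 4 log2 scaled reads, the regions most like ACSL5 were those of TGOLN2 (0.67), SPTBN4 (0.83) and RPTOR (0.83). Those most like CPT1A were SUSD2 (0.31), AGMAT (0.41) and MIR34A (0.48). These 6 had 2 to 5 IgG reads in low glucose, a count that entered the distance. PPARG region 2 was most like regions of SPRED2 (0.26), AGAP1 (0.26) and POLRMT (0.27). CD36 was most like regions of BSN-AS2 (0.15), SLC25A3 (0.23) and MSRB3 (0.27), at HNF4A ratios of high over low glucose of 0.71 to 0.83. The HNF4A reads behind these ratios also entered the distance. Among the 5 regions themselves, the closest pair was the 2 regions of PPARG (0.86) and the farthest was CPT1A and CD36 (3.26).

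**Figure D4:**
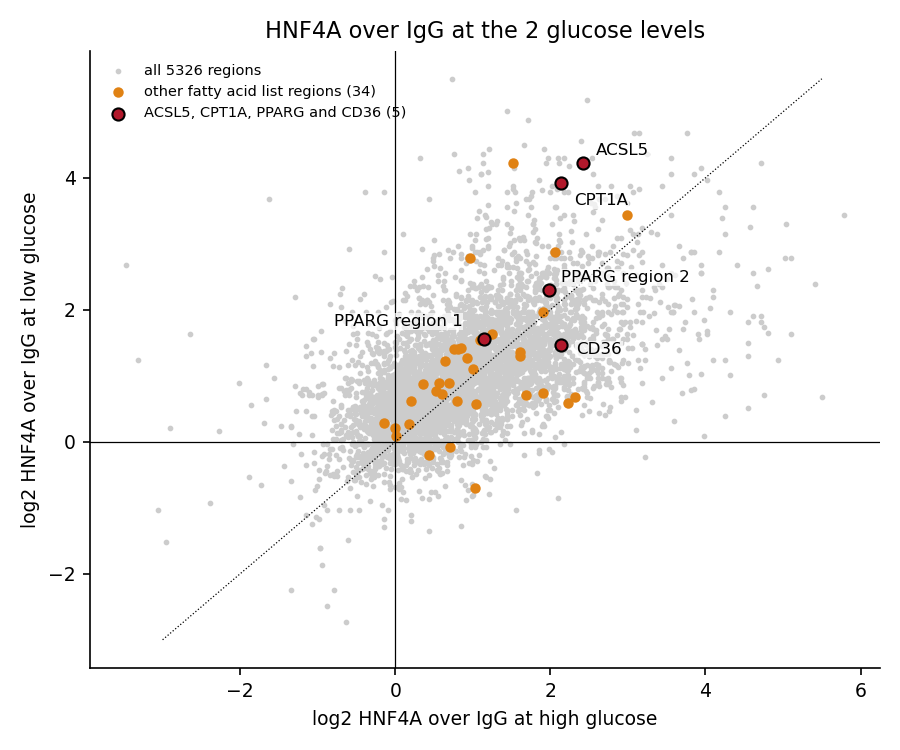
The log2 ratio of HNF4A over IgG in high glucose (x axis) and in low glucose (y axis) for each of the 5326 regions (grey), 34 regions of the other fatty acid list genes (orange) and the 5 regions of ACSL5, CPT1A, PPARG and CD36 (red). The dotted line marks equal ratios: CD36 lies below it, and ACSL5 and CPT1A lie far above it.

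Other genes of fatty acid metabolism were taken from a list of 98 genes, 10 of them of storage and lipolysis and 10 of synthesis as a contrast. Of the 94 that are not among the 4, 30 had a region. Their 34 regions had a median log2 ratio over IgG of 0.89 in high glucose and 0.88 in low glucose, beside 0.79 and 0.94 over all regions. At least 2-fold over IgG were 14 of 34 in high glucose and 15 of 34 in low glucose, close to the 41.6% and 46.8% of all regions. Without the storage and synthesis genes as well, 25 regions of 22 genes were left, of which 10 were at least 2-fold over IgG at each glucose level, with medians of 0.80 in high and 0.76 in low glucose. HNF4A was at least 2-fold higher in high glucose in 2 of the 34, with ETFB among them, and IgG in 4, beside 6.78% and 19.4% of all regions.

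Among uptake genes, 4 of 15 had a region. SLC27A3, a fatty acid transport protein gene, had 118 HNF4A and 33 IgG reads in high glucose and 80 HNF4A and 48 IgG reads in low glucose in the region with more reads. That region stood at 1.69 (1.12 to 2.30) over IgG in high and 0.71 (0.18 to 1.26) in low glucose, with the larger ratio in high glucose as in CD36. Its difference, high minus low, was 0.98 (0.18 to 1.79), where the interval of CD36 includes 0. HNF4A for high over low glucose was 0.43 in this SLC27A3 region and IgG was -0.56, beside 0.93 and 0.25 in CD36. The other SLC27A3 region and those of SLC27A4 and SLC27A5, from the same transporter family, stood at 0.01 to 0.35 in high and 0.08 to 0.87 in low glucose. In each of these the ratio was larger in low glucose, within counting error. Among activating enzymes, 2 of 8 had a region. ACSL4, which prefers arachidonic acid, stood at -0.01 (-0.77 to 0.75) and 0.21 (-0.66 to 1.10), intervals that lie below those of ACSL5 at each glucose level.

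Of the carnitine shuttle, 3 of 8 genes had a region. CPT1C, the neuronal form, had 58 HNF4A and 14 IgG reads in high glucose and 28 HNF4A and 7 IgG reads in low glucose. It stood at 1.90 (1.04 to 2.86) over IgG in high and 1.97 (0.75 to 3.41) in low glucose. CRAT, carnitine acetyltransferase, stood at 0.60 (0.14 to 1.08) and 0.73 (0.04 to 1.45). Both had more HNF4A reads in high glucose, at 0.91 for CPT1C and 0.98 for CRAT, and more IgG reads as well, at 0.98 and 1.10.

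Mitochondrial oxidation had 5 of 18 genes with a region. ACADM, medium-chain acyl-CoA dehydrogenase, had 23 HNF4A and 5 IgG reads in high glucose and 15 HNF4A and 2 IgG reads in low glucose, a log2 ratio of 2.06 (0.63 to 3.81) in high and 2.88 (0.78 to 6.05) in low glucose. HADHB, a subunit of the trifunctional protein, stood at 1.09 (0.63 to 1.56) and 1.54 (0.94 to 2.18). ETFB, which carries electrons from the acyl-CoA dehydrogenases, had 2 regions. In the one that comes first by position HNF4A over IgG was 2.31 (1.53 to 3.18) in high and 0.68 (-0.12 to 1.52) in low glucose. The other stood at 1.61 (0.89 to 2.39) and 1.36 (0.55 to 2.23). The difference, high minus low, was 1.63 (0.45 to 2.82) in the first and 0.25 (-0.90 to 1.39) in the other. ACAD10, a related dehydrogenase, stood at 0.52 and 0.76, and DECR1, of unsaturated fatty acid oxidation, at 0.70 and -0.08. Of the 2 peroxisomal genes with a region, of 9, ABCD3, a fatty acid importer, stood highest, at 1.25 (0.39 to 2.18) and 1.64 (0.67 to 2.71), and the regions of ACOX3, an acyl-CoA oxidase, stood at 0.80 and 0.69 in high and at 0.62 and 0.89 in low glucose. Of the ketone body genes BDH1, which interconverts the ketone bodies, stood at 0.93 (0.11 to 1.80) and 1.27 (0.21 to 2.43), and ACAT1, the mitochondrial thiolase, at 0.44 and -0.20.

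Among regulators, 7 of 16 genes had a region, 6 of them besides PPARG. PPARA, the liver's fatty acid receptor, had 29 HNF4A and 7 IgG reads in high glucose and 17 HNF4A and 10 IgG reads in low glucose. It stood at 1.90 (0.68 to 3.34) over IgG in high and 0.74 (-0.47 to 2.03) in low glucose, the opposite order to both PPARG regions. The interval of the difference includes 0 in PPARA and in both PPARG regions, so these orders are not separated from counting error. RXRA, the partner of both receptors, had 41 HNF4A and 19 IgG reads in high glucose and 42 HNF4A and 6 IgG reads in low glucose. It stood at 0.96 (0.15 to 1.83) and 2.78 (1.54 to 4.31), a difference of -1.82 (-3.56 to -0.25), with HNF4A for high over low glucose of -0.17 and IgG of 1.65. PDK4, which inhibits pyruvate dehydrogenase when fat is burnt, stood at 0.64 (0.02 to 1.27) and 1.22 (0.55 to 1.92). LPIN2, SIRT3 and MLYCD stood at 1.61, 0.76 and -0.15 in high glucose and at 1.30, 1.40 and 0.28 in low glucose.

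**Figure D5:**
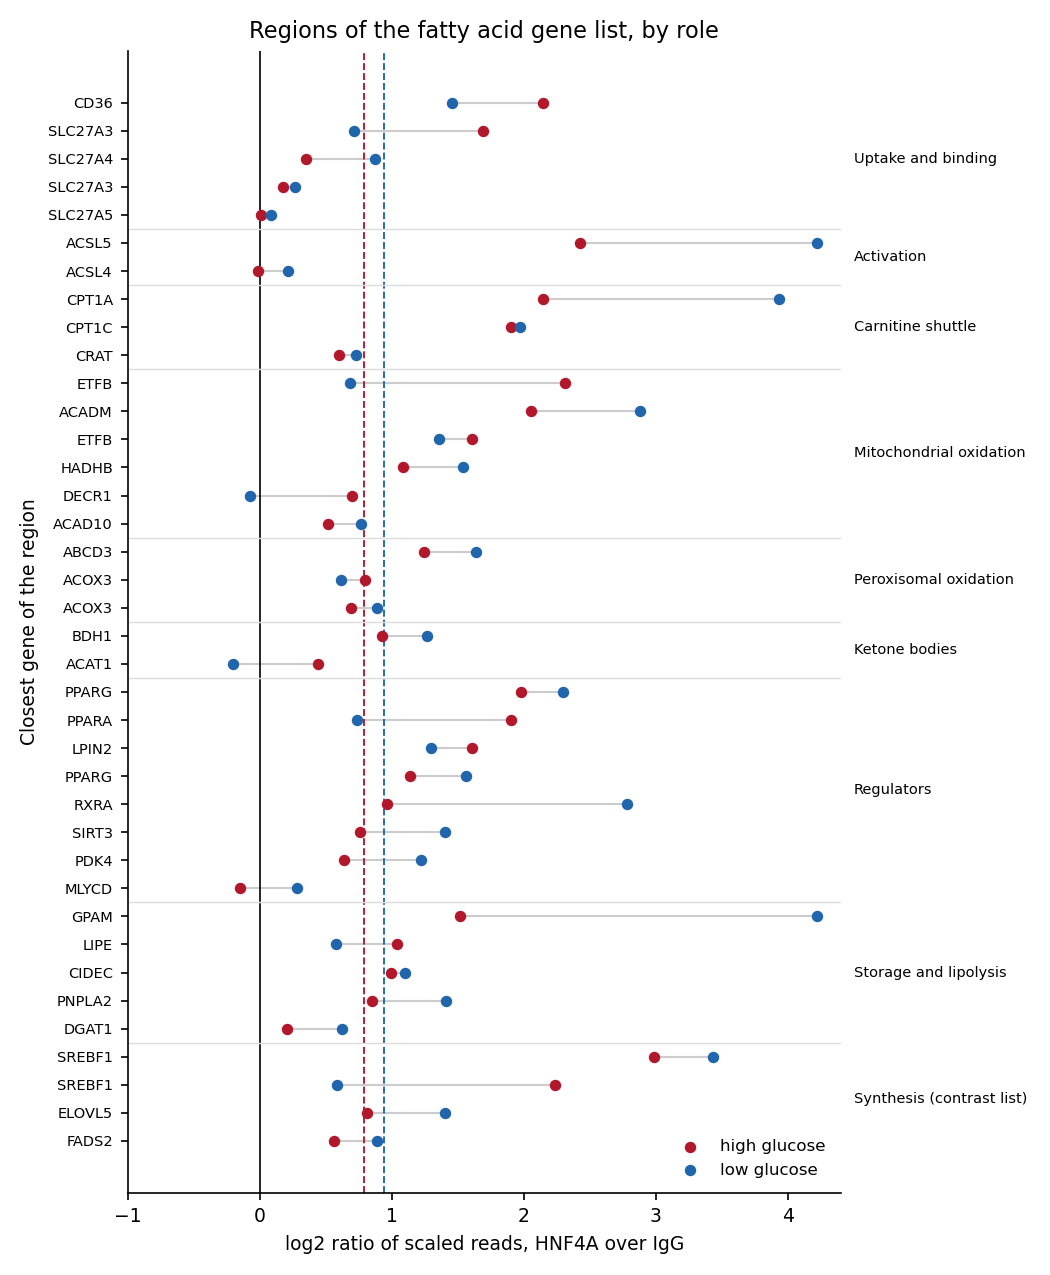
The log2 ratio of HNF4A over IgG (x axis) in high and low glucose for 38 regions of the fatty acid list (y axis, closest gene), grouped by role. Dashed lines are the medians of all regions, 0.79 in high and 0.94 in low glucose. ACSL5, CPT1A and GPAM reach the highest ratios in low glucose.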

How the data were processed

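HNF4A and IgG chromatin immunoprecipitation libraries of HCCLM3 cells were compared at both glucose levels, with 1 library per group. DiffBind, HOMER, MACS, Bowtie 1.1.2 and bcl2fastq are named in the submitters' processing notes, with build hg19. Their settings and the total depth are not stated there. Each table that the authors deposited holds log2 levels of scaled reads, a log2 fold, a p-value and a false discovery rate (FDR) per region and comparison. How the authors chose the regions is not stated.

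From the deposited log2 levels, whole reads and relative library sizes were recovered: 100% of values were whole multiples of 1 step per library, within 0.01. The smallest listed count was 1, which may stand for 0. Ratios of scaled reads carry exact 95% intervals: Clopper-Pearson for 2 libraries, conditional for a difference of 2 ratios, Poisson for levels. The Clopper-Pearson intervals were checked on simulated reads for HNF4A over IgG in high glucose, with counting error alone, the error they assume. That check could not cover PCR copies or differences between replicates. All the intervals cover counting error only, since 1 library per group gives no replicate error. Copies made by PCR are not independent molecules, so the intervals may be too narrow where such copies were counted. No model was fitted. A call was a 2-fold difference.

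The members and lists were chosen with earlier results of these data known. Named were every region of the 4 genes, every list gene with a region, regions of other genes within 500 kb, and the 3 regions most like each gene's region with most HNF4A reads. The values of 2 genes that this rule names are not reported here. Promoters came from RefSeq (GRCh38.p14). All 4 genes matched by symbol. Starts are printed counted from 1. Python 3.11.15, scipy 1.17.1 and pandas 2.3.3 were used.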

Additional observations from a re-analysis of the deposited data

Results flagged for a closer look

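In 5 of the 58 regions named in this report, HNF4A over IgG had opposite signs at the 2 glucose levels. The share of all regions with opposite signs was not counted. Regions with 1 sign at both levels could also differ beyond counting error. The first ETFB region by position had a difference of 1.63 (0.45 to 2.82), and RXRA of -1.82 (-3.56 to -0.25). With 1 library per group none of these differences was tested against replicate error. MKRN2, beside PPARG, stood at -0.49 in high and 1.56 in low glucose, a difference of -2.05 (-3.22 to -0.89), with 38 IgG reads in high and 16 in low glucose. DECR1, an auxiliary enzyme of unsaturated fatty acid oxidation, stood at 0.70 and -0.08, a difference of 0.78 (0.07 to 1.48). ACAT1, the mitochondrial thiolase, had a difference of 0.64 (-0.33 to 1.61), MLYCD, malonyl-CoA decarboxylase, of -0.43 (-1.64 to 0.78), and ACSL4 of -0.22 (-1.41 to 0.96). None of the 5 regions of ACSL5, CPT1A, PPARG and CD36 was among them.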

How the results depend on the processing

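No paired analysis was possible because each group has 1 library, and no library could be left out. Directions over IgG of the 5 regions were kept under every scaling run. After centring on the all-region median, which shifts the ratios by -0.79 in high glucose, -0.94 in low glucose, -0.36 for HNF4A and -0.51 for IgG between levels, 3 of the 5 were 2-fold over IgG in low glucose in place of 5. The list counts are over all 39 list regions, which include the 5. They became 10 in place of 19 in high glucose and 11 in place of 20 in low glucose. For HNF4A between levels the list count became 0 in place of 2. Unscaled reads shift HNF4A for high over low glucose by 0.14. With them, 1 of the 5 (CD36) passed 2-fold in place of 0, and 8 list regions, CD36 among them, in place of 2. Shares of all regions past 2-fold were not counted after centring or with unscaled reads. Counting intervals that exclude 0 in place of 2-fold gave 2 for HNF4A and 1 for IgG, in place of 0 and 2. Asking for 10 reads on the lower side left 3 over IgG in low glucose and 0 for IgG between levels, since ACSL5 and CPT1A dropped out. With the mean IgG of both levels (for the difference, added after the data were seen), the differences of ACSL5, CPT1A and PPARG region 2 turned to 0.51, 0.37 and 0.15, and the median of the 5 to 0.37 in place of -0.42. Adding 0.5 reads, setting IgG to at least 3, 1 region per gene and leaving the 4 genes out of the list moved no count past 1.5 times. Depth limits ratios in low glucose that rest on 3 or fewer IgG reads, those of ACSL5, CPT1A and GPAM among them.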

Other observations

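Genes of fat storage, lipolysis and fatty acid synthesis also had regions. Of 10 storage and lipolysis genes 5 had a region, and their log2 ratios over IgG follow for high and then low glucose, except GPAM, which is given above. CIDEC, a lipid droplet protein, stood at 0.998 (0.18 to 1.86) and 1.10 (0.21 to 2.06), and DGAT1, which makes triglyceride, at 0.20 (-0.17 to 0.58) and 0.62 (0.16 to 1.10). LIPE, hormone-sensitive lipase, stood at 1.04 (0.43 to 1.69) and 0.58 (-0.22 to 1.41), and PNPLA2, adipose triglyceride lipase, at 0.85 (0.10 to 1.64) and 1.41 (0.50 to 2.41). Of 10 synthesis genes 3 had a region. SREBF1, the lipogenic transcription factor gene, had 35 HNF4A and 4 IgG reads in high glucose and 22 HNF4A and 2 IgG reads in low glucose in one region, at 2.98 (1.50 to 4.94) and 3.43 (1.41 to 6.57). Its other region had 52 HNF4A and 10 IgG reads in high glucose and 26 HNF4A and 17 IgG reads in low glucose. That other region stood at 2.23 (1.24 to 3.37) and 0.59 (-0.35 to 1.56). The difference, high minus low, was 1.65 (0.20 to 3.13) there and -0.45 (-4.02 to 2.49) in the SREBF1 region given first. ELOVL5 and FADS2, of fatty acid elongation and desaturation, stood at 0.81 and 0.56 in high glucose and 1.40 and 0.89 in low glucose.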
